A study of Mus musculus with 4 samples.

Results

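The synaptic vesicle release machinery is the set of proteins that docks, primes and fuses synaptic vesicles and senses the calcium that triggers fusion. Its transcripts were described here through their N6-methyladenosine (m6A) peaks in the spinal cord. Members were all peaks whose assigned gene name was a synaptotagmin, syntaxin, syntaxin-binding protein, vesicle-associated membrane protein, SNAP protein, Unc13, Rim, synapsin, Sv2, Rab3 or complexin gene, *Bsn* or *Pclo*. The rule reads gene names only. By this rule, 229 of 33556 peaks in the CCI list, 235 of 34406 peaks in the sham list and 43 of 4812 rows in the table of differential peaks were members. They carried 66 gene names, 63 in each peak list and 26 in the differential table, of 13558 gene names in all.

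Male C57BL/6J mice between 6 and 8 weeks of age were used. Some had their sciatic nerve loosely tied with silk, the chronic constriction injury (CCI) model of neuropathic pain, and others had sham surgery with the same steps and no tie. Spinal cord was collected on day 7 from both. In MeRIP-seq, RNA fragments bound by an m6A antibody (the IP library) are sequenced beside the RNA taken before binding (the input library). There was 1 IP and 1 input library for each surgery, and the number of mice behind a library is not given in the sources used here. A fold enrichment is the ratio of IP over input that the authors computed for a peak within its own group. With 1 library of each kind in a group, the differences between surgeries below rest on no replicates and carry no p-value. Depth is unknown because the tables hold no read counts. In bulk tissue, fewer cells of a type and less RNA per cell cannot be told apart.

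In neurons, vesicle and plasma membrane SNAREs zip into a complex that pulls the membranes together, syntaxin-binding and Unc13 proteins guide its assembly, and synaptotagmin with complexin ties fusion to calcium. Active zone proteins such as Bassoon, Piccolo and the Rims hold vesicles and calcium channels at the release site. In the spinal dorsal horn this machinery serves transmission from sensory afferents and local interneurons. m6A is laid down mainly within short motifs around an adenosine followed by a cytosine and is typically dense near stop codons and in long exons. The antibody also binds a related methylated adenosine at the cap of many mRNAs.

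Neuronal and glial transcripts were both present among the methylated RNAs. Of the 7 neuronal marker genes looked up, 6 had a peak in each list, all but *Nefl*. All 5 astrocyte, all 6 oligodendrocyte and all 5 microglia markers had a peak in each list, as did 2 of 3 Schwann cell markers. Several syntaxins, SNAPs and synaptotagmins of the rule are not restricted to neurons, so the peaks cannot be assigned to a cell type.

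Because m6A and cap methylation are read from the transcript itself, RefSeq bases (GRCm38.p6) at the transcript starts lying under a peak of the same gene are shown before the values. Of 75 RefSeq starts of 59 release machinery genes, 14 starts of 13 genes had at least 20 of the 50 transcribed bases after the start inside a peak of either list. The letters GGAC, the commonest core of the m6A motif, were searched on the transcript strand in those 50 bases and are in capitals. Shown are the 5 genes with GGAC in the window and peaks of both lists over the start, and *Syn1*, a strongly enriched start without these letters. Each stretch is 30 bases, 5′ to 3′.
Syt2, bases 21 to 50 after the start (plus strand, chr1, start 134709300): ctggccggcgcgggagtgggaagaggGGAC
Stxbp5, bases 21 to 50 (minus strand, chr10, start 9901040): ggaggccgagcccgGGACctgccgggGGAC
Sv2a, bases 15 to 44 (plus strand, chr3, start 96181227): cagccctgtggctGGACcccctccctcacc
Cplx1, bases 1 to 30, of which 27 lie in the peak (minus strand, chr5, start 108550027): gtcatgcgGGACgcgggcgggggcgcctct
Stx16, bases 1 to 30, of which 24 lie in the peak (plus strand, chr2, start 174076302): agagcccgGGACcactgcacggaagcggcc
Syn1, bases 1 to 30 (minus strand, chrX, start 20920918): agtctgcagcgggcagcagaggagtcgcgt
GGAC was present in 6 of the 14 covered starts (42.9%, 95% Wilson interval 21.4 to 67.4), in 19 of all 75 starts of the rule (25.3%), in 22.8% of the 2176 starts of any gene covered by its own peak and in 18.9% of all 32851 starts. GTCC, the same letters on the opposite strand, was in 1 of the 14 (7.14%) and in 17.4% of all starts. The first transcribed base was A at 4 of the 14 starts (28.6%) and at 22.7% of the starts of the rule. It was A at 29.6% of the covered starts of any gene and at 34.4% of all starts. These matches describe the letters in a window and do not place a methylated base.

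The fold enrichment of release machinery peaks had a median of 4.6 in both lists, with the middle 50% from 2.68 to 10.6 in CCI and from 2.52 to 10.1 in sham. The medians over all peaks were 5.73 in CCI and 5.70 in sham. Member peaks covered a median of 240 exonic bases in CCI and 239 in sham, against 211 and 239 over all peaks. A gene had a median of 3 peaks in each list, against 2 over all genes, and 14 of 63 genes in CCI (22.2%) and 15 of 63 in sham (23.8%) had at least 5 peaks, against 14.7% and 13.9% of all genes. *Pclo*, which encodes the active zone scaffold Piccolo, held the most, with 21 peaks in CCI and 20 in sham. *Bsn*, which encodes its relative Bassoon, followed with 13 in CCI and 11 in sham.

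Most genes had peaks under both surgeries. Of the 66 genes, 60 had peaks in both lists (90.9%), against 86.8% of all 13554 genes with a peak, and each of these 60 had at least 1 matched pair. *Stx7*, *Stxbp2* and *Vamp3* had a peak in the CCI list only, with 1 peak each. *Snap23*, *Stx12* and *Stxbp5l* had peaks in the sham list only, with 2 each. The RefSeq table held 76 protein-coding symbols of the rule, and 10 of them had no peak in any table. These were *Cplx3*, *Cplx4*, *Stx11*, *Stx19*, *Stxbp6*, *Syt8*, *Unc13d*, *Vamp4*, *Vamp7* and *Vamp9*.

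The gene names came from the authors' annotation, and a name was not always that of the RefSeq gene at the peak. In the CCI list 16 of 229 member peaks, and in the sham list 15 of 235, had under 50% of their bases inside the RefSeq span of the named gene. Of the peaks named *Syt2*, 5 in each list lay in *Ppp1r12b*, the next gene. Of the peaks named *Vamp1*, 6 in each list lay outside *Vamp1*, in *Tapbpl* or where RefSeq has no gene. A peak named *Stx4a* lay outside that gene in each list, and the only peak named *Vamp3* lay in *Camta1*. The *Sv2a* 3′ UTR peak had 13.3% of its bases inside *Sv2a* and the rest beyond its end. In the *Syt4* 5′ UTR pair the CCI peak had 48% of its bases inside *Syt4* and the sham peak 88%.

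Release machinery peaks had shares of the transcript regions close to those of all peaks when every peak was counted. In CCI, 119 of 229 peaks (52.0%, 95% Wilson interval 45.5 to 58.4) were annotated to a 3′ UTR, 78 (34.1%, 28.2 to 40.4) to another exon and 32 (14.0%, 10.1 to 19.1) to a 5′ UTR. In sham the counts were 120 (51.1%), 76 (32.3%) and 39 (16.6%). Over all peaks the 3′ UTR held 49.8% in CCI and 48.9% in sham, and the 5′ UTR held 14.7% and 16.1%, all within the intervals of the members. These intervals cover counting error only. With every gene and region counted once, the 5′ UTR share of members was 24.1% in CCI and 25.4% in sham. The share over all genes was not counted this way, so these values cannot be set against the shares of all peaks. Of the 78 and 76 other-exon peaks, 46 in CCI and 48 in sham belonged to active zone and priming genes. In the 5′ UTR the median fold enrichment of member peaks was 10.2 in CCI and 6.14 in sham, whereas in the 3′ UTR it was 4.4 and 4.61. Over all peaks the median was also higher in the 5′ UTR, at 8.51 in CCI and 8.21 in sham. In the 3′ UTR it was 5.92 and 5.81 over all peaks.

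**Figure D1:**
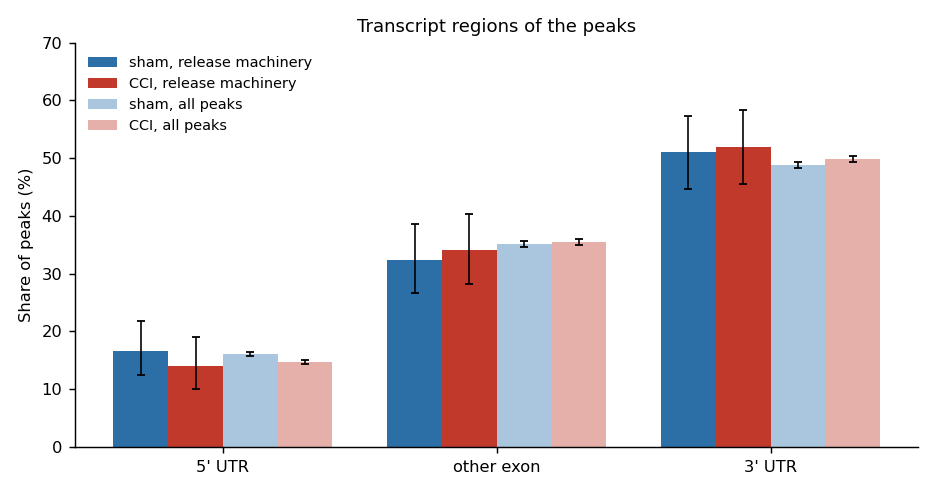
Share of peaks (%) in each transcript region for release machinery peaks and for all peaks of the sham and CCI lists, with bars as shares and lines as 95% Wilson intervals. The 3′ UTR held 52.0% of member peaks in CCI and 51.1% in sham, close to 49.8% and 48.9% of all peaks.

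Most peaks had a partner in the other list. In the CCI list 30 of 229 member peaks (13.1%, 95% interval 9.33 to 18.1) overlapped no sham peak, against 12.3% of all CCI peaks. In the sham list 41 of 235 (17.4%, 13.1 to 22.8) overlapped no CCI peak, against 16.1% of all sham peaks. The members without a partner were weak and short, with a median fold enrichment of 2.53 over 75.5 bases in CCI and 3.32 over 91 bases in sham. The strongest of them in CCI were a 5′ UTR peak of *Pclo* at 10.4, a 5′ UTR peak of *Vamp5* at 9.9, a peak named *Stx7* outside that gene at 9.38, the peak named *Vamp3* at 7.7 and an exon peak of *Pclo* at 5.47. In sham they were a 3′ UTR peak of *Stx8* at 16.3, a 5′ UTR peak of *Syt5* at 15.1, a 3′ UTR peak of *Stxbp4* at 13.9, and 3 peaks at 12.8, in the 5′ UTR of *Vamp8*, the 5′ UTR of *Syn3* and an exon of *Unc13a*.

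To compare levels, each peak was paired with the peak of the other list where each was the other's best partner by shared bases. There were 187 pairs with a member name on both sides, from 60 genes, among 27380 pairs in all. Another 3 pairs had a member name on 1 side only and were left out. The median log2 ratio of fold enrichment, CCI over sham, was 0.10 over the 187 pairs, with the middle 50% from -0.29 to 0.46, and 0.03 over all pairs, with the middle 50% from -0.37 to 0.43. With every gene counted once the member median turned to -0.039, against 0.03 over all genes. Fold enrichment was higher in CCI in 105 pairs and lower in 82 (43.9%), against 51.8% higher and 47.8% lower of all pairs. At least a 2-fold higher value in CCI was seen in 22 of 187 pairs (11.8%, 95% interval 7.90 to 17.2), against 8.59% of all pairs. At least a 2-fold lower value was seen in 14 (7.49%, 4.51 to 12.2), against 7.25% of all pairs. The peaks of a pair had identical borders in 43 of the 187 pairs, in 7 of the 22 and in 1 of the 14, so most ratios compare partly different bases.

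By region the pairs divided differently. This split was made after the values were seen. In the 5′ UTR, 8 of 27 member pairs were at least 2-fold higher in CCI (29.6%) and 0 were at least 2-fold lower, against 11.5% and 11.9% of all 4093 pairs in a 5′ UTR. The 8 were pairs of *Syt2*, *Snap91*, *Cplx2*, *Stxbp5*, *Syt11*, *Syt4*, *Stx4a* and *Syt5*. With 6 of them the peaks lay inside the named gene, while the *Stx4a* pair lay outside *Stx4a* and the CCI peak of the *Syt4* pair was 48% inside *Syt4*. The *Cplx2* sham peak reached into a stretch annotated as 3′ UTR in CCI. Peaks without a partner are not in the 5′ UTR counts. The strongest there in sham were *Syt5* at 15.1 and *Vamp8* and *Syn3* at 12.8. In CCI they were *Pclo* at 10.4 and *Vamp5* at 9.9. Overlapping 5′ UTR peaks that were not best partners are also left out. Their log2 ratios were -1.86 for *Cplx1*, 1.50 for *Syt2* and 1.29 for *Syt4*. In the 3′ UTR, 8 of 103 member pairs were at least 2-fold higher (7.77%) and 12 were at least 2-fold lower (11.7%), against 8.57% and 6.34% of all pairs in a 3′ UTR. In other exons the counts were 6 of 57 higher (10.5%) and 2 lower (3.51%), against 7.35% and 6.56%. The median log2 ratio of member pairs was 0.34 in the 5′ UTR, 0.11 in other exons and 0.04 in the 3′ UTR.

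**Figure D2:**
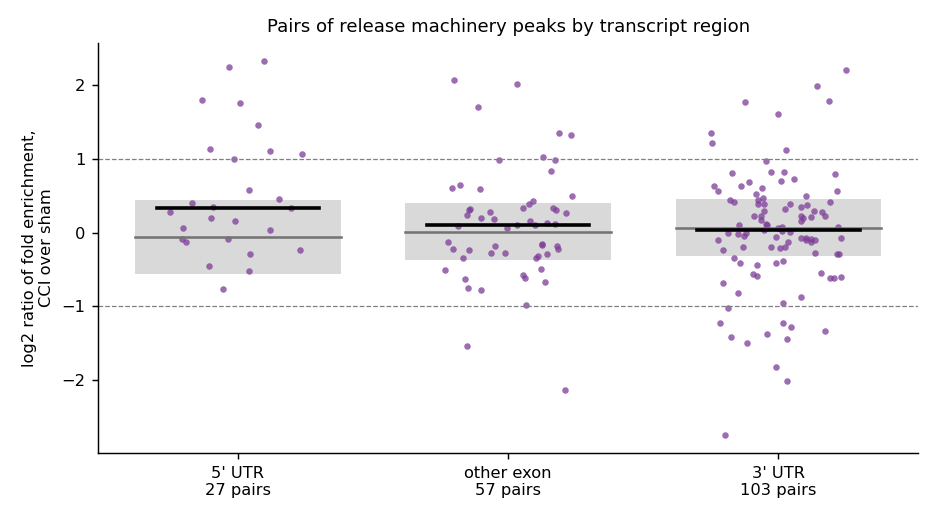
log2 ratio of fold enrichment, CCI over sham, for the 187 pairs of release machinery peaks by transcript region, with points as pairs, black lines as their medians, grey bands as the middle 50% of all pairs of the region and grey lines as the medians of all pairs. In the 5′ UTR 8 points lie above 1 and none below -1 (dashed lines), whereas in the 3′ UTR 8 lie above 1 and 12 below -1.

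The spread of the ratio widened with the strength of the peaks, here the geometric mean of the fold enrichment in CCI and sham. Under a strength of 4, 3 of 72 member pairs were at least 2-fold higher in CCI and 2 at least 2-fold lower. At 16 and over, 8 of 32 were at least 2-fold higher and 4 at least 2-fold lower. Over all pairs the middle 50% ran from -0.23 to 0.33 below 4 and from -0.63 to 0.56 at 16 and over, where 13.8% were at least 2-fold higher and 14.1% at least 2-fold lower. A 2-fold difference between strong peaks was thus more common in these libraries than between weak ones.

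**Figure D3:**
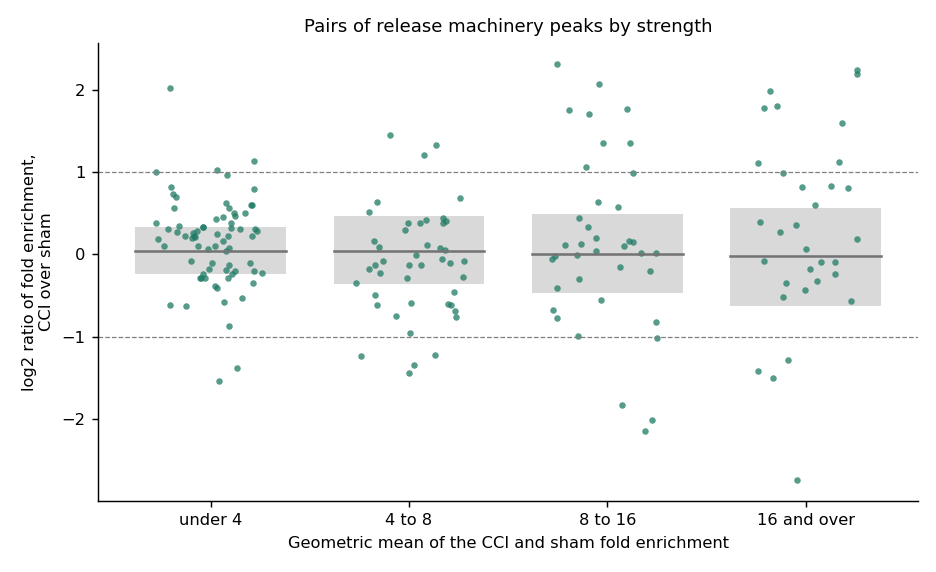
log2 ratio of fold enrichment, CCI over sham, for release machinery pairs in 4 classes of strength (geometric mean of the CCI and sham fold enrichment), with points as pairs, grey bands as the middle 50% of all pairs of the class and grey lines as their medians. The band widens from -0.23 to 0.33 under 4 to -0.63 to 0.56 at 16 and over.

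Among the vesicle SNAREs, *Vamp2*, which encodes synaptobrevin-2, the main vesicle SNARE of fast release, had a higher fold enrichment in CCI at all 5 of its pairs. The 5′ UTR peak at chr11:69088490-69088730 had a fold enrichment of 13.1 in CCI and 8.77 in sham (log2 ratio 0.58). The peak at chr11:69090045-69090195, called 3′ UTR in CCI and exon in sham, had 4.37 and 2.69 (0.70). In the 3′ UTR, the peak at chr11:69090555-69090795 had 23.2 and 13.2 (0.81) and that at chr11:69090915-69091125 had 2.53 and 1.43 (0.82). The last 3′ UTR peak, chr11:69092264-69092384, had identical borders in both lists and the largest difference, with 78.2 in CCI and 22.7 in sham (1.78). A sixth sham peak, in exon 3 of 5, stood at 1.92 and had no CCI partner. All 5 pairs thus differed in the same direction, and the peak without a partner was a sham peak.

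*Vamp1*, which encodes synaptobrevin-1, a vesicle SNARE abundant in the spinal cord, had 9 peaks in CCI and 8 in sham by name. Those inside the gene were a 3′ UTR pair at 3.37 in CCI and 2.76 in sham, a 3′ UTR pair reaching beyond it at 18 and 26.7 (-0.57), and a CCI peak of 1.76 with no partner. The strongest peak named *Vamp1*, chr6:125241886-125242485, had 227 in CCI and 217 in sham and was among the top 0.396% and 0.453% of the lists, but no RefSeq gene lies there. Of the other peaks outside the gene, the pair at chr6:125240596-125240896 had 37.3 and 9.4 (1.99) and 2 pairs in *Tapbpl* had 44.3 and 14.6 (1.60) and 4.69 and 4.18 (0.17). These values therefore do not describe the *Vamp1* transcript as RefSeq has it.

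The plasma membrane SNAREs had few and mostly weak peaks. *Snap25*, the partner of syntaxin and synaptobrevin in the fusion complex, had 2 peaks in each list. Its exon 4 peak had a fold enrichment of 2.34 in CCI and 2.18 in sham, and its 3′ UTR peak had 3.12 and 2.06 (0.60). *Stx1a*, which encodes syntaxin-1A, had a 3′ UTR pair at 14.1 and 14.7 and a pair starting in exon 2 at chr5:135037177-135041292 with 7.3 in CCI and 1.8 in sham (2.02). That exon pair covered 360 bases in CCI and 180 in sham, so its borders differed. A sham peak of *Stx1a* in the 5′ UTR stood at 2.16 with no partner.

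*Stx4a*, which encodes a syntaxin of many cell types, had a 5′ UTR pair over its own start at 74.4 and 56.6 (0.39) and a 3′ UTR pair at 2.31 and 1.97. *Stx2* had a 3′ UTR pair at 4.52 in CCI and 12.3 in sham (-1.44) beside a second at 4.4 and 4.82. *Stx3*, a syntaxin of ribbon synapses and epithelia, had 3.61 and 4.41, and *Snap23*, which encodes a SNAP-25 relative, had sham peaks of 6.68 and 3.10 alone.

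The synaptotagmins differed widely in enrichment. *Syt1*, the fast calcium sensor of forebrain synapses, had 1 pair, in exon 7 of 12, at a fold enrichment of 3.94 in CCI and 3.33 in sham, and a CCI peak of 1.6 with no partner. *Syt2*, the fast sensor of spinal cord and brainstem synapses, had 3 pairs inside its gene. Its 5′ UTR peak in CCI had 22.2 over 420 bases, whereas in sham the same stretch was split into a peak of 4.44 and a peak of 7.84. The log2 ratio was 2.32 against the sham peak that was its best partner and 1.50 against the other, which covers the start printed above. Its 3′ UTR pair, of 1409 bases in CCI and 1439 in sham, had 8.3 and 10.2 (-0.30) and its exon 4 pair had 2.68 and 2.16.

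*Syt7*, a high-affinity sensor tied to asynchronous release and vesicle replenishment, had 7 pairs, of which 6 were higher in CCI. Its 5′ UTR held overlapping pairs at 77.1 in CCI and 60.4 in sham (0.35) and at 51.7 and 45.3 (0.19). In its 3′ UTR the strongest pair had 45.8 and 25.9 (0.82) and another, chr19:10451236-10451595, had 7.26 and 3.13 (1.21). The only lower pair, at 2.93 and 3.56, was also in the 3′ UTR. *Syt3* had the largest higher value in CCI of the 3′ UTR pairs, at chr7:44399797-44400097 with 107 in CCI and 23.3 in sham (2.20), with identical borders and with 77.7% of its bases inside *Syt3*. *Syt3* also had an exon pair at 12.5 and 4.98 (1.33) and an exon pair at 2.61 and 3.32.

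*Syt5* was higher in CCI at all 3 pairs, with 12.8 in CCI and 6.14 in sham (1.06) and 2.67 and 2.21 in the 5′ UTR, and 9.97 and 7.36 in the 3′ UTR. A sham 5′ UTR peak of *Syt5* at 15.1 had no CCI partner. *Syt6*, by contrast, had its strongest pair lower, at 4.6 in CCI and 10.8 in sham (-1.23), and its other 4 pairs between -0.61 and 0.41. *Syt9*, a sensor of limbic and neuroendocrine cells, had a 3′ UTR pair at 4.1 and 9.57 (-1.22) and an exon pair at 12.8 and 11.7. *Syt10* had 2.53 and 3.92 (-0.63). Among the 30 pairs named for calcium-binding synaptotagmins, 5 were at least 2-fold higher (16.7%) and 2 at least 2-fold lower (6.67%), against 8.59% and 7.25% of all pairs. The 30 include 5 pairs named *Syt2* that lay in *Ppp1r12b*, and all 7 past 2-fold were among the other 25.

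Of the synaptotagmins that bind calcium weakly or not at all, *Syt11* and *Syt13* differed little at their strongest coding or 3′ UTR peaks. *Syt11* had an exon pair at 11 in CCI and 12.2 in sham, and a 5′ UTR pair at 11.6 and 4.23 (1.46). *Syt12* had 6.24 and 4.36 (0.52), and *Syt13* had 7.96 and 8.08. *Syt14* had an exon 6 pair, of 240 bases in each list at partly different positions, with 6.32 in CCI and 27.9 in sham (-2.14), beside a 3′ UTR pair at 7.61 and 7.89. *Syt15* had 10.4 and 27.9 (-1.42) in the 3′ UTR, where the CCI peak covered 91 bases and the sham peak 419. *Syt16* had 10.8 and 6.97 (0.63), *Syt17* had 6.12 and 10.3 (-0.75) and the *Syt4* 5′ UTR pair, with its CCI peak mostly outside *Syt4*, had 5.91 and 2.69 (1.14). The other 2 *Syt4* pairs, in an exon and inside the gene, were lower in CCI, at 2.9 and 4.44 (-0.61) and 2.11 and 3.14 (-0.57). Among the 20 pairs of these synaptotagmins 2 were at least 2-fold higher (10%) and 2 at least 2-fold lower (10%), near the 8.59% and 7.25% of all pairs. The *Syt4* 5′ UTR pair was 1 of the 2 higher pairs.

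The active zone and priming genes held 78 CCI and 77 sham peaks and 59 pairs, with a median log2 ratio of 0.07. At least 2-fold higher in CCI were 3 pairs (5.08%), all in *Pclo*, and at least 2-fold lower were 5 (8.47%), against 8.59% and 7.25% of all pairs. *Bsn* carried long blocks of enrichment over its coding exons. Its longest peak, in exon 5 of 12 at chr9:108111278-108115022, spanned 3745 bases in CCI and 3775 in sham with a fold enrichment of 18.3 and 26.1 (-0.51). The exon 6 peak spanned 1649 and 1589 bases with 19.1 and 24.3 (-0.35). The exon 3 peak had 10.5 and 16.8 (-0.68), and the other coding pairs were between -0.28 and 0.31. Over all 10 pairs *Bsn* was lower in CCI at 6 and higher at 4, and none reached 2-fold. Its 3′ UTR pairs had 4.04 and 6.15 (-0.61) and 2.21 and 1.7 (0.38). The sham peak of 6.15 also overlapped a CCI peak of 1.97 that was not its best partner (-1.64). CCI peaks of 5.17 in exon 4 and 1.65 in the 3′ UTR, and a sham peak of 1.58 in the 3′ UTR, had no partner.

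*Pclo* was mixed along its length. Its strongest peak, in exon 2 of 20 at chr5:14521648-14522158, had 64.9 in CCI and 81.2 in sham (-0.32), and the peak beside it had 7.3 and 12.5 (-0.78). From exon 4 onward, 11 of 12 pairs were higher in CCI, against 51.8% of all pairs, and the lower pair was in exon 5. The cut at exon 4 was not planned in advance. A CCI exon 3 peak of 5.32 is not among these pairs, because its sham partner, at 11, was named *Gm42448*. That sham peak also overlapped a CCI exon 4 peak of 18 that was not its best partner (0.71). Of the 12, the exon 7 pair at 4.54 and 2.23 overlaps another exon 7 pair. The largest of the higher pairs was in exon 5 at chr5:14676672-14676972, with 18.4 in CCI and 4.39 in sham (2.07). The exon 6 stretch was 1 peak of 1740 bases with 24.8 in CCI and 3 peaks in sham, of which the best partner had 12.5 (0.99). The exon 7 peak had 26.7 and 15 (0.83). The lower exon 5 pair, of 150 bases in both lists, had 7.3 and 14.5 (-0.99). Other pairs at least 2-fold higher had 15 and 5.87 (1.35), where the CCI peak was longer, and 4.54 and 2.23 (1.03). The remaining 7 pairs were between -0.49 and 0.43, and the last of them, in the 3′ UTR, had 10.6 and 9.21. In the 5′ UTR the CCI peak of 10.4 and a sham peak of 4.65 lay next to each other without overlap.

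**Figure D4:**
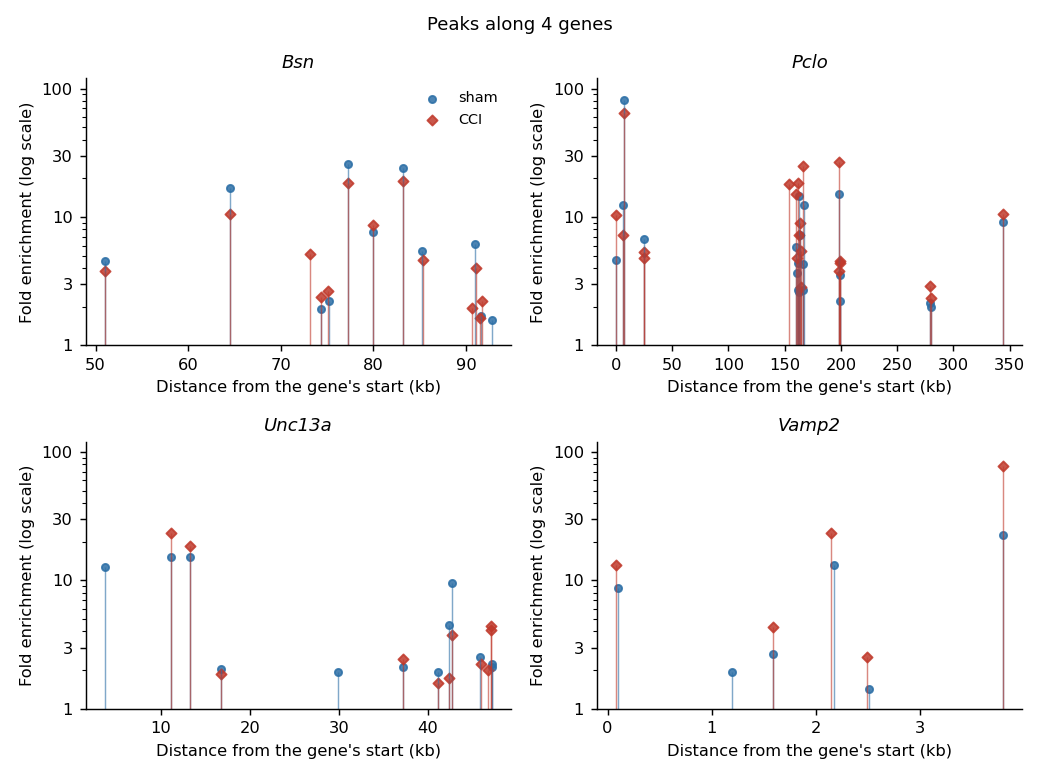
Fold enrichment (log scale) of each peak named Bsn, Pclo, Unc13a or Vamp2 against the distance of the middle of its longest exonic block from the start of the gene (kb, introns included), for sham (circles) and CCI (diamonds). The Bsn blocks at 26.1 and 24.3 in sham stand at 18.3 and 19.1 in CCI, while the last Vamp2 peak stands at 22.7 in sham and 78.2 in CCI.

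The Unc13 genes, whose Munc13 proteins prime vesicles, had several lower values in CCI in their 3′ UTRs. *Unc13a* had its strongest peaks in coding exons, at 23.3 in CCI and 15.3 in sham (0.61) from exon 7 and at 18.5 and 15.3 (0.27) from exon 10. In its 3′ UTR annotation the pairs at chr8:71628914-71629124 and chr8:71629364-71629484 had 3.78 and 9.57 (-1.34) and 1.74 and 4.52 (-1.38), with shorter CCI peaks at both. The last 3′ UTR pair had 4.11 and 2.1 (0.97), in the other direction. The remaining 4 pairs were between -0.29 and 0.22. A sham peak of 12.8 at the first exon of a short transcript, chr8:71667974-71668064, had no CCI partner.

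*Unc13b* had 7 peaks in sham and 3 in CCI, with 1 pair between them. That pair, in the 3′ UTR at chr4:43264541-43264841, had 11.5 in CCI and 32.5 in sham (-1.50). The 6 sham peaks without a partner ran from 2.32 to 10.8 and lay in the 5′ UTR and in coding exons, and the CCI peaks without a partner had 3.34 and 3.70. *Unc13c* had its strongest peaks in the large exon 2, the highest at 16.8 in CCI and 19 in sham (-0.18). Its peaks elsewhere were weak, with a 3′ UTR pair at 1.97 and 2.12, a 5′ UTR pair at 2.55 and 2.02, and CCI peaks of 1.61 in exon 7 and 1.4 in exon 9 with no partner. An exon 2 pair of 90 bases in CCI and 210 in sham had 2.05 and 5.94 (-1.53). The remaining 5 *Unc13c* pairs were between -0.24 and 0.34. The sham exon 2 peak of 19 also overlapped a CCI peak of 1.93 that was not its best partner (-3.30).

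The Rim genes, which tether vesicles and calcium channels, differed by less than 2-fold at every pair except the last 3′ UTR pair of *Rims3*. *Rims1* had its strongest pair from exon 6 at 12 in CCI and 11.1 in sham, with its other 3 pairs between -0.53 and 0.18. Sham peaks of *Rims1* with 8.13 and 2.61 and a CCI peak with 2.76 had no partner. *Rims2* had 6.36 and 7.73 in exon 6 and 4.46 and 4.29 in the 3′ UTR. *Rims3* had 7 pairs, of which the last 3′ UTR pair had 9.56 and 19.4 (-1.02) and the others were between -0.41 and 0.64. *Rims4* was higher in CCI at all 4 pairs but by at most 0.47, its strongest at 12.6 and 12.4. That sham peak also overlapped a CCI exon peak of 2.78 that was not its best partner (-2.16).

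Among the syntaxin-binding proteins, *Stxbp5*, which encodes tomosyn-1, a protein that holds back SNARE assembly, had a 5′ UTR pair over the start printed above with 23.5 and 6.97 (1.75) and a 3′ UTR pair at 12.3 and 12.2 (0.01). *Stxbp3* had 3.87 and 6.56 (-0.76) and *Stxbp4* had 4.12 and 2.48 (0.73), beside a sham 3′ UTR peak of 13.9 with no partner. *Stxbp2* had a CCI peak of 2.44, and *Stxbp5l* had sham peaks of 3.36 and 2.66.

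Complexins, which clamp and promote fusion, were represented by 2 of their 4 genes. *Cplx1* had a long pair annotated as 5′ UTR at 22.9 in CCI over 690 bases and 24.3 in sham over 870 bases (-0.09). In CCI the start of the transcript, printed above, was a separate peak with 6.71. Its 3′ UTR pair had 1.24 and 1.65 (-0.41), beside a CCI peak of 1.61 with no partner. *Cplx2* had a pair annotated as 5′ UTR with 69.5 in CCI over 1165 bases and 19.9 in sham over 1972 bases (1.80). In CCI the rest of that stretch was a second peak with 12.5. The other *Cplx2* pairs, in the 3′ UTR, had 12.7 and 14.6, 4.06 and 4.29, and 3.07 and 2.07 (0.57), and a CCI peak of 1.19 there had no partner.

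Of the 20 pairs of vesicle proteins, 13 were lower in CCI (65%), against 47.8% of all pairs. At least 2-fold higher was 1 pair (5%) and at least 2-fold lower were 2 (10%), near the 8.59% and 7.25% of all pairs, and 1 of the 2 was the *Sv2a* peak mostly outside *Sv2a*. *Rab3a*, the main Rab of synaptic vesicles, had a single pair, in the 3′ UTR at chr8:70758143-70758677, with 48 in CCI and 117 in sham (-1.29). *Rab3b* had 2.52 and 4.61 (-0.87) and *Rab3d* had 10.9 and 19.3 (-0.82), each with 1 pair in the 3′ UTR. *Rab3c*, in contrast, had 4 pairs, of which the strongest, chr13:110060001-110060391 in the 3′ UTR with identical borders, had 71.3 and 32.7 (1.12). Its other pairs were between -0.07 and 0.45.

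*Sv2a*, which encodes the vesicle protein bound by levetiracetam, had the largest lower value of all member pairs. The peak at chr3:96195132-96195521, with the same borders in both lists, had 43.9 in CCI and 294 in sham (-2.74), but only 13.3% of its bases lay inside the RefSeq span of *Sv2a*. Its 5′ UTR pair, over the start printed above, had 29.2 and 31.1 (-0.09), and its exon 6 pair had 1.23 and 1.39. *Sv2b* had 3.58 and 4.12 in the 3′ UTR, and *Sv2c* had 8.58 and 8.35 in the 5′ UTR and was higher by at most 0.50 at its other pairs. *Syn1*, which encodes synapsin-1, the vesicle phosphoprotein, had a 5′ UTR pair over its start at 59.3 and 69.8 (-0.24) and a 3′ UTR pair at 2.02 and 2.39 (-0.24). *Syn2* had 3.94 and 5.4 (-0.45) in the 5′ UTR and 2.75 and 2.19 in an exon, and *Syn3* had 6.84 and 8.73 (-0.35).

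**Figure D5:**
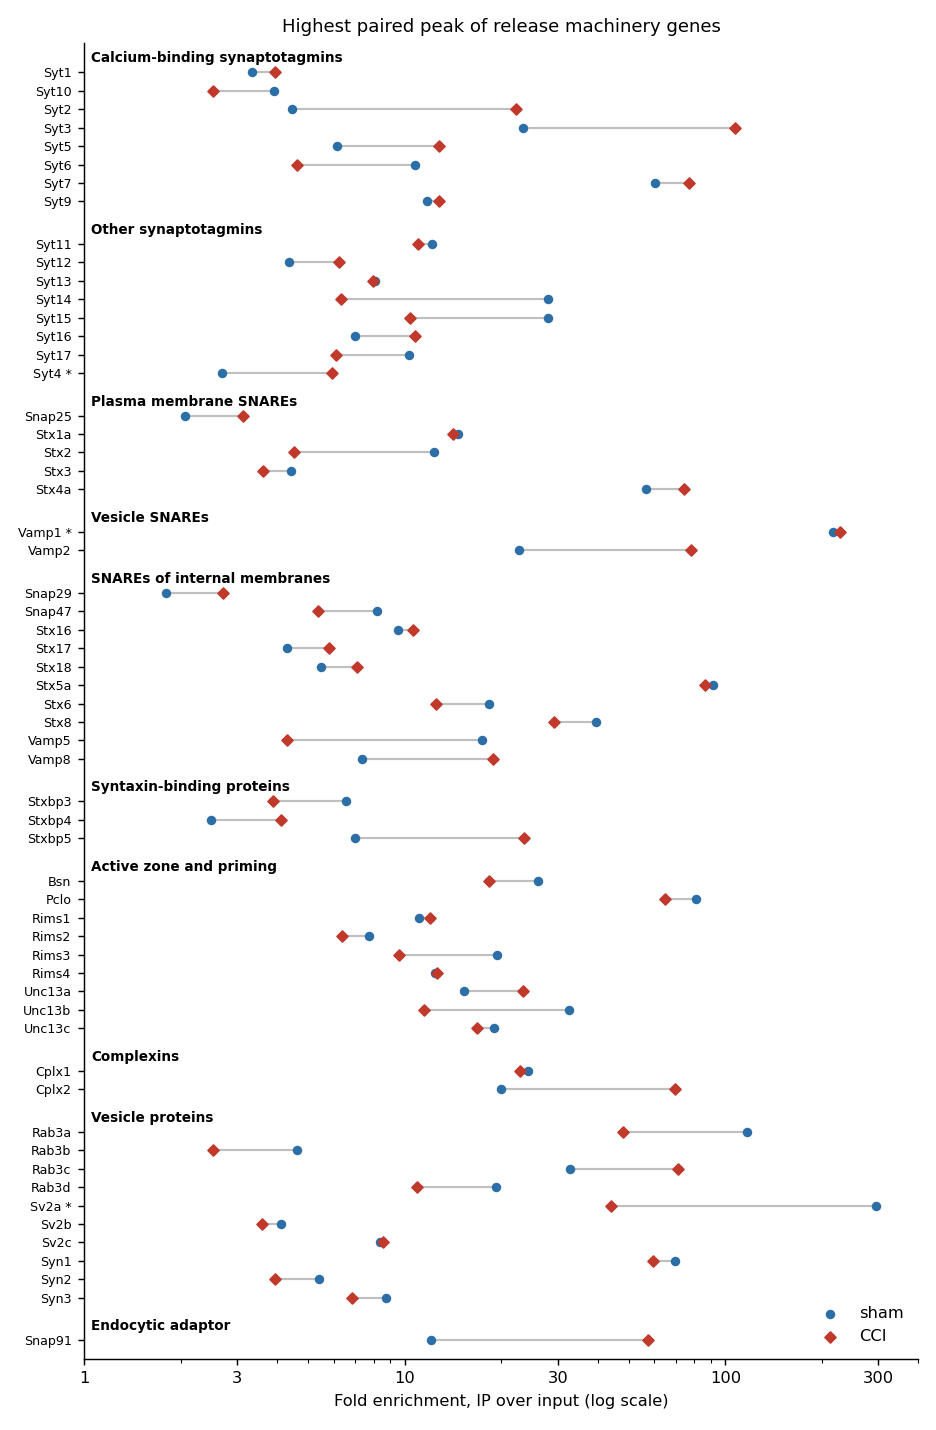
Fold enrichment of IP over input (log scale) in sham (circles) and CCI (diamonds) for the pair with the highest value of each of 58 genes with a pair, grouped by role, with a star where under 50% of the bases of a peak lay inside the RefSeq span of the named gene. Sv2a stands at 294 in sham and 43.9 in CCI, Syt3 at 23.3 and 107, Vamp2 at 22.7 and 78.2, and Rab3a at 117 and 48.

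The SNAREs of internal membranes, which serve trafficking outside the release site, split evenly, with 9 pairs higher and 9 lower in CCI. *Stx5a*, a Golgi syntaxin, had a 3′ UTR pair at 86.4 in CCI and 91.8 in sham (-0.09). *Stx6* had a 3′ UTR pair at 17.2 and 5.04 (1.77) and a second at 12.5 and 18.3 (-0.55). *Stx8* was lower at all 3 pairs, at 29.2 and 39.5 (-0.44), 5.53 and 5.58, and 6.52 and 23.2 (-1.83), the last with a CCI peak of 61 bases against 240. *Vamp8* had 18.8 and 7.36 (1.35) in the 3′ UTR and 5.47 and 2.74 (0.997) in the 5′ UTR, where a sham peak of 12.8 had no partner. *Vamp5* had 4.3 and 17.4 (-2.02) and 6.78 and 7.16 (-0.08).

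Of the remaining internal genes, *Stx16* had 10.6 in CCI and 9.55 in sham over the start printed above, *Stx17* had 5.82 and 4.29, *Stx18* had 7.12 and 5.47, *Snap29* had 2.72 and 1.80 and *Snap47* had 5.37 and 8.22 (-0.61). *Stx12* had sham peaks of 3.82 and 1.87 outside its RefSeq span. *Snap91*, which encodes the clathrin adaptor AP180 and carries the SNAP name without being a SNARE, had a 5′ UTR pair at 57.3 and 12.1 (2.24) and an exon 12 pair at 15.3 and 4.69 (1.71). Both *Snap91* pairs were thus over 3-fold higher in CCI.

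Counted by gene, 27 member genes had at least 3 pairs. In 5 of them, *Rims4*, *Stx4a*, *Sv2c*, *Syt5* and *Vamp2*, all pairs were higher in CCI, against 10.4% of the 3926 genes of the whole series with at least 3 pairs. In 2 of them, *Stx8* and *Sv2a*, all pairs were lower, against 8.1%. The member shares were 18.5% (95% interval 8.18 to 36.7) and 7.41% (2.06 to 23.4). *Stx4a* and *Sv2a* reached 3 pairs only through a pair outside or mostly outside the named gene. With pairs inside the named gene alone (a split made after the values were seen), 4 of 23 genes were higher throughout and 1, *Stx8*, lower throughout. *Vamp2* was the only one of the 7 with every pair past 0.5 on the log2 scale. Overlapping peaks that were not best partners are outside these counts. In the 7 genes they were CCI peaks of *Rims4* at 2.78 against 12.4 in sham (-2.16) and of *Stx8* at 16.7 against 39.5 (-1.24).

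The table of differential peaks named release machinery genes in 43 rows, with 23 in a 3′ UTR, 12 in another exon and 8 in a 5′ UTR. These rows named 26 of the 66 member genes (39.4%), against 25.3% of all genes. Member genes also had more peaks, a median of 3 in each list against 2 over all genes, which these shares do not take into account. *Pclo* and 1 other gene had 3 rows each, 13 genes had 2 and 11 genes had 1. By role, 9 rows fell to active zone and priming genes, 7 to vesicle proteins, 6 to calcium-binding synaptotagmins and 5 to plasma membrane SNAREs. 3 rows lay outside the RefSeq span of the named gene. They were a *Stx4a* row, the *Vamp3* row in *Camta1* and the *Sv2a* 3′ UTR row. The fold changes and p-values of CCI against sham in that table are the authors' own comparison and were not used.

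Other genes of the vesicle cycle, outside the rule, were read from a list of 42 genes covering vesicle membrane proteins, disassembly factors, transmitter transporters, tethers and endocytic proteins. Of these, 36 had a peak in CCI and 35 in sham, and *Syngr3*, *Synpr*, *Snapin* and *Slc18a3* had none in either. Their 116 pairs had a median log2 ratio of -0.03, with 53 higher and 62 lower in CCI, 7 at least 2-fold higher (6.03%) and 3 at least 2-fold lower (2.59%), against 8.59% and 7.25% of all pairs. The largest higher values were those of *Syp*, which encodes the vesicle protein synaptophysin, with a 3′ UTR pair at 282 in CCI and 26 in sham (3.44), and of *Nsf*, the ATPase that takes SNARE complexes apart, with a 5′ UTR pair at 79.7 and 11.2 (2.83). *Doc2b*, *Doc2a*, *Rimbp2* and *Dnm3* held the other 5 higher pairs. The 3 lower pairs were in the 5′ UTR of *Synj1*, which encodes the phosphatase synaptojanin-1, at 5.47 and 37.2 (-2.77), in the 5′ UTR of *Slc32a1*, the vesicular transporter for GABA and glycine, at 10.4 and 36 (-1.79), and in the 3′ UTR of *Dnajc5*, which encodes the vesicle chaperone CSPα, at 5.73 and 15.4 (-1.43). The highest peak of *Slc17a6*, the glutamate transporter VGLUT2, had 5.04 and 6.1.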

How the data were processed

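MeRIP-seq of 4 spinal cord libraries, 1 IP and 1 input each for CCI and sham, was analysed from 3 deposited tables. The submitters' processing notes name fastp, HISAT2, HOMER, ChIPseeker and the build GRCm38, whereas the methods of the study name Cutadapt, bowtie, MACS2 and ChIPseeker, so the caller is uncertain. Columns are named as in exomePeak output. The fold enrichment deposited by the authors is a ratio of IP over input. The deposited log10 false discovery rate was handled as a score, since some values are minus infinity. The differential table also holds the authors' fold change, p-value and false discovery rate of CCI against sham, which were not used.

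Members were found by gene name, and the members and lists were chosen with earlier results of these data known. Peaks of the lists counted as overlapping when their exonic blocks shared at least 1 base. With 1 library per group the threshold was a 2-fold ratio (1 on the log2 scale). Named were the highest pair of each gene, pairs past 2-fold, up to 5 strongest peaks without a partner in each list (6 in sham, for a tie) and the peaks of the core genes, the weaker pairs of *Bsn*, *Pclo*, *Unc13a* and *Rims1* by range. The genes of the RefSeq table (GRCm38.p6) were used for spans and starts, with 66 of 66 member names matched. Intervals are 95% Wilson intervals and cover counting error only. The pairing was tested on simulated data, in which peaks lay far apart and had at most 1 partner each. That test does not cover split, merged or overlapping peaks. A motif search in peaks was not run, since no genome sequence was used here. Python 3.11.15, numpy 2.4.6, pandas 2.3.3 and matplotlib 3.10.9 were used. The values of 2 member genes are not reported here, though their peaks stay in the counts.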

Additional observations from a re-analysis of the deposited data

How the results depend on the processing

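No paired analysis was possible because neither surgery had a second library, and no replicate could be left out. Of 64 alternative values for 17 results, the following moved. Where partners had to share 50% of the bases of each peak, the share of member peaks with a partner fell to 75.5% in CCI and 73.6% in sham, from 86.9% and 82.6%. With every gene counted once, the median log2 ratio was -0.039 in place of 0.10. The 5′ UTR share was then 24.1% (CCI) and 25.4% (sham), and the other-exon share in sham 25.4%. Without *Bsn* and *Pclo* the other-exon share was 26.2% in CCI and 25% in sham. At a log2 ratio of 0.5, 45 pairs were higher (24.1%) and 34 lower (18.2%) in CCI, against 22.1% and 19.4% of all pairs, with 23 higher and 22 lower in the 3′ UTR and 2 lower in the 5′ UTR. The sign of the overall median thus differs between counting by pair and by gene. Only peaks at least 50% inside the RefSeq span of the named gene left 18 pairs at least 2-fold higher and 13 lower, and 6 higher in the 5′ UTR. With 50% overlap 9 of the 12 lower 3′ UTR pairs were left. The alternatives on RefSeq spans and on the 5′ and 3′ UTR pairs were chosen after seeing the data. Fold enrichments of the lists rest on different inputs and peak borders, and the depth behind them is unknown.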

Other observations

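Some peaks inside release machinery genes carried other names and were not counted as members. The 3′ end of *Syn1* held a peak named *Araf*, chrX:20860511-20861051, with a fold enrichment of 11.1 in CCI and 9.02 in sham, above the 2.02 and 2.39 of the 3′ UTR pair named *Syn1*. The end of *Syt2* held a peak named *Ppp1r12b* with 20.2 in CCI and 8.99 in sham. Inside *Pclo*, sham peaks with 11 and 4.65 were named *Gm42448* and *Gm26918*. A peak inside *Syt1* named *AC162908.1* had 2.14 in CCI and 1.66 in sham. In all, 5 such peaks were found in CCI and 6 in sham.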
